A study of Mus musculus with 6 samples.

Results

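Cluster 3 was the group of outflow tract (OFT) cells that the authors' Leiden clustering numbered 3, which with clusters 2 and 7 formed the mesenchyme of the OFT cushions that the study classed as cardiac neural crest. Its members were taken as every segmented cell that lay inside the hand-drawn OFT outline and carried this cluster number. There were 938 such cells among the 6078 OFT cells (15.4%) and the 364721 segmented cells of the series. The cells came from transverse sections of 6 mouse embryos at E11.5, imaged by MERFISH, which reads single RNA molecules in fixed tissue, with a panel of 140 genes chosen for OFT development. There were 3 Ankrd11-nchet embryos (*Ankrd11* fl/WT; Wnt1Cre2), the controls, and 3 Ankrd11-ncko embryos (*Ankrd11* fl/fl; Wnt1Cre2), the knockouts. Both genotypes carried the Wnt1Cre2 transgene, in which the *Wnt1* promoter drives Cre in the pre-migratory neural crest, so the controls had also lost 1 copy of *Ankrd11* in that lineage and no wild-type embryo was compared. *Ankrd11* encodes a chromatin regulator. Cells of other origin in the OFT kept the gene in both genotypes.

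Cardiac neural crest cells leave the dorsal neural tube, pass through the pharyngeal arches and fill the cushions of the OFT, where they form loose mesenchyme. Toward the midline they condense into the septum that divides the aorta from the pulmonary artery, and around the arteries they mature into smooth muscle. *Postn*, which encodes the matrix protein periostin, and *Pdgfra*, which encodes a receptor for platelet-derived growth factor, mark this mesenchyme, *Sox9* encodes a transcription factor of the neural crest, and *Penk*, which encodes proenkephalin, marks the more mature cells near the septum.

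Levels of single genes, cell positions and cell volumes were not used here. Cluster 3 is therefore called neural crest mesenchyme on the study's markers (*Postn*, *Pdgfra* and *Sox9*), and could not be checked here against transcripts of these genes. The study named *Penk* as a mark of both cluster 2 and cluster 3. It also used *Cxcl12*, a chemokine gene that it described as a mark of immature vascular smooth muscle cells. Among the neural crest clusters of the controls, it reported *Cxcl12* in the largest proportion in cluster 2 and in a low proportion in cluster 3. Whether the cells of cluster 3 are less mature than those of cluster 2 could not be checked here either, without the levels of these genes. The same holds for the deletion of *Ankrd11*, and the study allowed for some mesenchyme of the second heart field, another source of OFT cells, in these clusters. The values used were the number of cells, the transcripts decoded per cell over the whole panel and how many of the panel's genes each cell showed. The sections held 43458 to 82198 cells per embryo, 814 to 1292 of them in the OFT, and the median OFT cell held 389 to 745 transcripts. No cell identifier occurred in more than 1 embryo. Of the embryos, 2 stood apart. The first control embryo was the shallowest, with a median of 339 transcripts per cell outside the OFT against 418 to 511 in the other embryos, and the third knockout embryo held the fewest OFT cells (814) and the most cells of cluster 3. Values are given with and without them where they decide a result. Each embryo is 1 replicate, and with 3 embryos against 3 the smallest p of the exact 2-sided permutation test is 0.1, so no comparison between the genotypes could pass 0.05.

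Cluster 3 was more abundant in the mean of the knockout OFTs, but the genotypes overlapped and the difference came largely from 1 embryo. Of the 938 cells, 41, 111 and 154 were in control embryos 1, 2 and 3, and 162, 171 and 299 in knockout embryos 1, 2 and 3, and values are listed in that order throughout. Each knockout section thus held more cluster 3 cells than any control section, although the outlines differed in size. As a share of OFT cells, cluster 3 made up 4.51% (95% Wilson interval 3.34% to 6.06%), 11.3% (9.45% to 13.4%) and 14.6% (12.6% to 16.9%) in the control embryos. In the knockout embryos it made up 12.5% (10.8% to 14.5%), 16.7% (14.5% to 19.1%) and 36.7% (33.5% to 40.1%). The interval of the first control embryo lay below those of all other embryos and that of the third knockout embryo above them, so the spread among embryos of 1 genotype was larger than counting error. The intervals cover counting error only. The first knockout embryo lay between the second and the third control embryo.

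**Figure D1:**
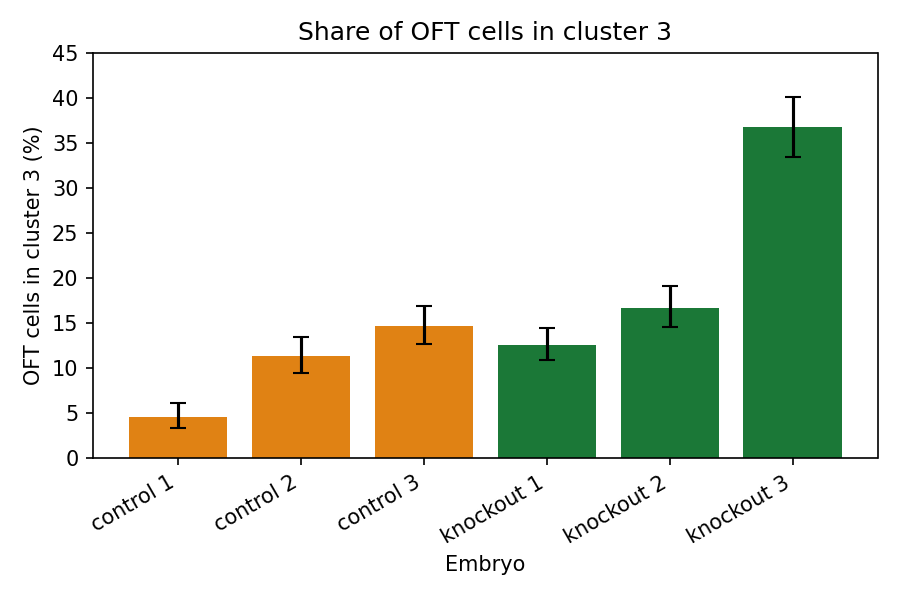
Cluster 3 cells as a percentage of OFT cells (y axis), with 1 bar for each embryo (x axis; controls orange, knockouts green) and 95% Wilson intervals. The first control embryo lies lowest at 4.51% and the third knockout embryo highest at 36.7%, while the other 4 embryos lie between 11.3% and 16.7%.

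The means were 10.1% ± 5.15 in the controls and 22.0% ± 12.9 in the knockouts (SD, n = 3 and 3, exact permutation p = 0.2, or 0.8 after Benjamini-Hochberg adjustment over 12 comparisons). The difference of 11.9 percentage points fell within the knockout SD. It was 4.48 without the third knockout embryo and 9.04 without the first control embryo. By number of cells, cluster 3 ranked 9th, 6th and 3rd among the 13 clusters in the controls and 3rd, 2nd and 1st in the knockouts. The embryos processed at the 2 facilities of the study are not named in the sources used here. Cell identifiers begin with the same 7 digits in the third embryo of either genotype, and the difference was 22.1 percentage points within that pair and 6.72 among the other 4 embryos.

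Among the cells of clusters 2, 3 and 7 alone, the clusters that the study classed as cardiac neural crest, cluster 3 made up 30.4% ± 14.6 in the controls and 46.6% ± 17.0 in the knockouts (SD, n = 3 and 3, exact permutation p = 0.5). That difference of 16.2 percentage points was 6.48 without the third knockout embryo and 8.03 without the first control embryo. Cluster 3 also held 4.57%, 15.0% and 16.5% of all OFT transcripts in the controls and 16.4%, 19.1% and 42.3% in the knockout embryos. The embryos kept the order they had by share of cells, and the first knockout embryo came within the controls again. Their means were 12% ± 6.51 and 25.9% ± 14.3 (SD, n = 3 and 3, exact permutation p = 0.2). The difference of 13.9 percentage points was 5.71 without the third knockout embryo and 10.2 without the first control embryo.

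Set against each of the other 9 clusters that held cells of every embryo, the mean log2 ratio of cluster 3 cells was higher in the knockouts for all 9, by 0.25 (cluster 7) to 1.95 (cluster 1). All 9 ratios share the same cluster 3 counts and are not independent of each other. For 1 of the 9, the ratio to cluster 1, the genotypes did not overlap, beside 4.44% of the 45 ratios between any 2 of clusters 1 to 10. That ratio depends on the cells of cluster 1 as much as on those of cluster 3. By share of OFT cells, cluster 3 itself overlapped between the genotypes, so the separation is not a result about cluster 3 alone. There were 0.193, 0.661 and 0.560 cells of cluster 3 per cell of cluster 1 in the controls, and 0.905, 1.06 and 4.27 in the knockout embryos. The first knockout embryo lay closest to the controls and the third far above the other knockouts. On the log2 scale the knockout mean was 1.95 higher (n = 3 and 3, exact permutation p = 0.1, adjusted p = 0.39 over the 9 ratios). The difference was 1.24 without the third knockout embryo, 1.40 without the first control embryo, 2.93 in the pair of the third embryos and 1.46 among the other 4.

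**Figure D2:**
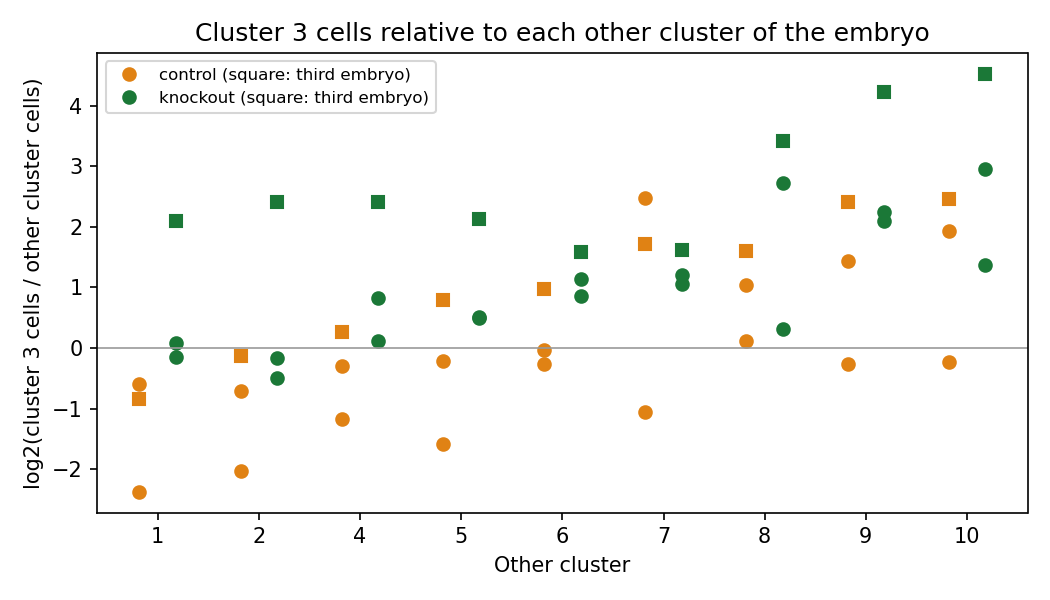
Number of cluster 3 cells over the number of cells of each other cluster of the same embryo (y axis, log2; x axis, the other cluster), with 1 point for each embryo (controls orange, knockouts green) and squares for the third embryo of each genotype. For cluster 1 all knockout points lie above all control points, and for cluster 7 the 3 knockout points lie within the range of the controls.

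Against cluster 2, the largest of the neural crest clusters over all embryos (993 cells), cluster 3 numbered 0.244, 0.610 and 0.917 cells per cell in the controls and 0.711, 0.895 and 5.34 in the knockout embryos. Only the third knockout embryo held more cells of cluster 3 than of cluster 2, and the other 2 knockout embryos lay between the second and the third control embryo. The third knockout embryo also held the fewest cells of cluster 2. Cluster 2 numbered 168, 182 and 168 cells in the controls and 228, 191 and 56 in the knockout embryos. The log2 ratio averaged -0.96 ± 0.98 and 0.59 ± 1.59 (SD, n = 3 and 3, exact permutation p = 0.3), a difference of 1.55 that was 0.63 without the third knockout embryo and 1.01 without the first control embryo.

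Against cluster 7, the shallow neural crest cluster, the difference was the smallest of the 9 and its sign was not stable. There were 0.482, 5.55 and 3.28 cells of cluster 3 per cell of cluster 7 in the controls and 2.31, 2.09 and 3.08 in the knockout embryos. The first control embryo was the only one with more cells of cluster 7 (85) than of cluster 3 (41). The log2 ratio averaged 1.04 ± 1.85 and 1.3 ± 0.29 (SD, n = 3 and 3, exact permutation p = 1), and the difference of 0.25 turned to -0.79 without the first control embryo. It also turned, to -0.36, when only cells with at least 200 transcripts were counted, and was -0.0881 in the pair of the third embryos. That embryo also had the lowest depth, whose part in its few cluster 3 cells was not tested. With clusters 3 and 7 counted together, the shares of OFT cells were 13.9%, 13.3% and 19.1% in the controls and 18%, 24.7% and 48.6% in the knockout embryos, so the first control embryo no longer stood below the other controls. The genotypes still overlapped (15.4% ± 3.18 and 30.4% ± 16.1, SD, n = 3 and 3, exact permutation p = 0.2).

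By median transcripts per cell, cluster 3 ranked 6th, 1st and 2nd among clusters 1 to 10 in the controls and 2nd, 5th and 5th in the knockouts. Over all embryos its cells held 152 to 2930 transcripts, with a median of 732 and quartiles of 506 and 1007.5, and only 4 of the 938 held fewer than 200. The embryo medians were 419, 1014 and 737.5 transcripts in the controls and 703.5, 714 and 738 in the knockouts. The knockout embryos lay close together, and the controls held both the lowest and the highest value. The means, 723.5 ± 298 and 718.5 ± 17.7 transcripts, differed by -5.00 (SD, n = 3 and 3, exact permutation p = 1). Of clusters 1 to 10, 10% had medians that did not overlap between the genotypes, and cluster 3 was not among them.

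**Figure D3:**
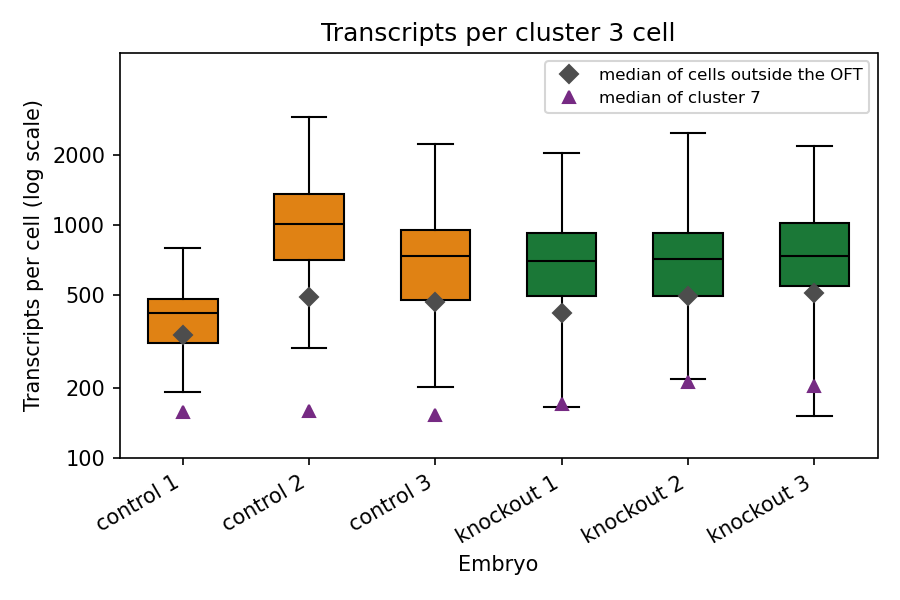
Transcripts per cluster 3 cell (y axis, log scale) in each embryo (x axis; controls orange, knockouts green). Boxes span the quartiles with the median as a line, and whiskers reach the lowest and highest cell. Grey diamonds are medians of the cells outside the OFT and purple triangles medians of cluster 7. The cluster 3 median lies above both in every embryo, from 419 transcripts in the first control embryo to 1014 in the second.

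Depth was also set against the rest of the section. Cluster 3 cells held 1.24, 2.05 and 1.58 times the median of the cells outside the OFT in the controls and 1.68, 1.44 and 1.44 times in the knockout embryos. Dividing by the section lowered the SD of the control medians from 0.65 to 0.37 on the log2 scale, while in the knockouts it rose from 0.04 to 0.13. The genotypes overlapped (log2 ratio 0.67 ± 0.37 and 0.60 ± 0.13, SD, n = 3 and 3, exact permutation p = 0.8). Within an embryo, the third quartile of cluster 3 was 1.54, 1.91 and 2.01 times the first in the controls and 1.87, 1.87 and 1.88 times in the knockouts, and the cells of the knockout embryos were thus spread almost alike. Cells with at least 1000 transcripts made up 51.4% of cluster 3 in the second control embryo and 19.8% to 27.4% in the third control embryo and the 3 knockout embryos. The first control embryo had 0 of 41, with a 95% Wilson upper bound of 8.57%, and its deepest cluster 3 cell held 797 transcripts.

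Depth set cluster 3 apart from cluster 7 but not from cluster 2, as a description, since the clusters were made from the same counts. Within an embryo the cluster 3 median exceeded the cluster 7 median 2.65-fold to 6.40-fold, and 11 of the 401 cells of cluster 7 (2.74%) exceeded the first quartile of cluster 3 in their embryo. It was 0.897, 1.13 and 1.06 times the median of cluster 2 in the controls and 1.07, 1.10 and 0.888 times in the knockout embryos. Cluster 3 was thus the deeper of the 2 in 4 embryos and the shallower in the first control and the third knockout embryo, the embryos with the fewest and the most cluster 3 cells. Between the genotypes this ratio differed by -0.01 on the log2 scale (n = 3 and 3, exact permutation p = 0.8).

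The median cluster 3 cell detected 86, 108 and 99 panel genes in the controls and 97, 95 and 97 in the knockouts, out of 140. The means were 97.7 ± 11.1 and 96.3 ± 1.15 genes (SD, n = 3 and 3, exact permutation p = 0.8). The number of genes rose with the number of transcripts in every embryo (Spearman rho across cells 0.900 to 0.929, a description, since both come from the same counts). Embryo medians were 74 to 79 genes in cells with 200 to fewer than 400 transcripts, 84 to 91 genes from 400 to below 600, 95 to 98 from 600 to below 800 and 99 to 107 from 800 to below 1000. The order of the embryos in genes, as in depth, thus placed the first control embryo lowest and the second highest.

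At matched depth cluster 3 detected fewer panel genes than cluster 2. Cells were grouped by transcripts, and the groups with at least 5 cells of both clusters gave 30 comparisons within the 6 embryos. Several came from each embryo, so they are not independent. Cluster 3 was lower in 25 of them, equal in 1 and higher in 4, with a median difference of -2.75 genes. The count was 13 of 14 in the controls and 12 of 16 in the knockouts. With cells of at least 400 and fewer than 800 transcripts matched in bins of 100, cluster 3 detected 93.7, 93.6 and 95 genes in the controls and 93.5, 90.3 and 91.8 in the knockout embryos. Each value is the average of the bin means. In cluster 2 the same measure was 97.2, 96.2 and 97.2 genes in the controls and 96.1, 91.2 and 95 in the knockout embryos. Cluster 3 was the lower in 6 of 6 embryos, with differences from -0.868 genes in the second knockout embryo to -3.50 in the first control embryo, where the emptiest bin held 1 cluster 3 cell. In the third knockout embryo, with -3.17, the emptiest bin held 4 cluster 2 cells. No test is given for this difference, because the clusters were defined on the expression of these cells. Gaps between clusters at this depth were common, and cluster 3 was not extreme. Over all cells of 400 to 800 transcripts, the control means of the embryo medians were 99.8 genes in cluster 1, 96 in cluster 2 and 93 in cluster 3. They were 88.7, 78 and 91 in clusters 4, 5 and 6. The knockout means of clusters 1 to 6 were 98, 92.2, 92.3, 85, 76.5 and 88.

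**Figure D4:**
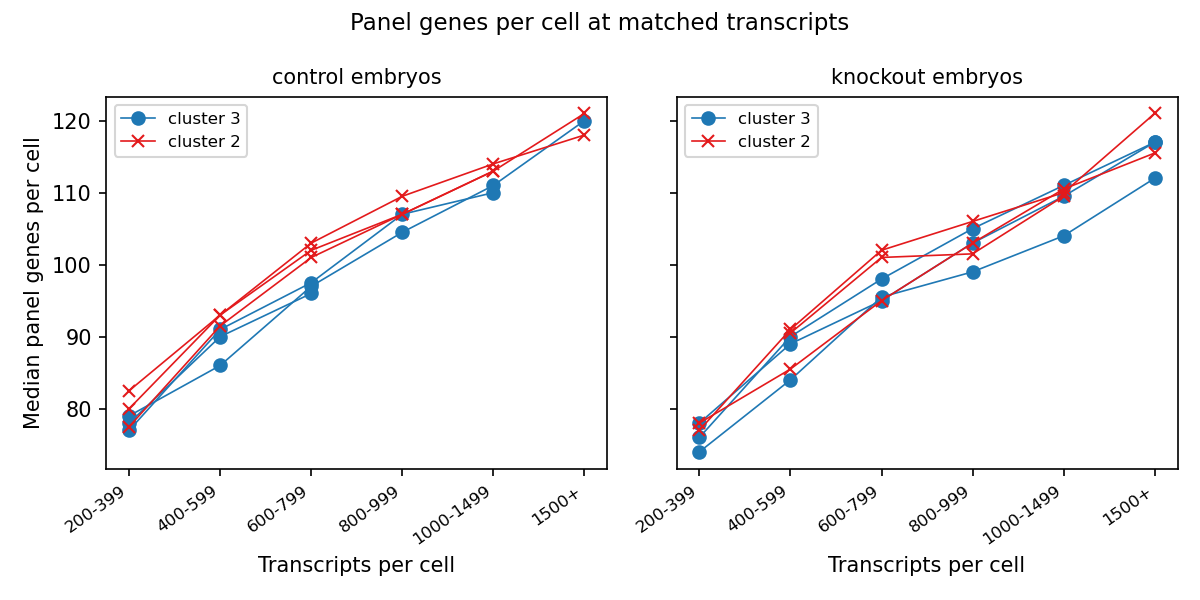
Median of the panel genes seen in a cell (y axis) against transcripts per cell in 6 ranges (x axis), for control embryos (left) and knockout embryos (right), with 1 line per embryo, blue circles for cluster 3 and red crosses for cluster 2; points need at least 5 cells. Both clusters rise together, and cluster 3 is below cluster 2 of the same embryo in 25 of 30 comparisons.

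Between the genotypes the result for panel genes depended on the measure. Bins were summarised by the average of their means and the whole window by its median. The measures thus differed in statistic as well as in depth matching. In bins of 100 transcripts, cluster 3 cells detected 94.1 ± 0.788 genes in the controls and 91.9 ± 1.59 in the knockouts, with all knockout values below all control values, the first knockout embryo (93.5) only just (exact permutation p = 0.1, SD, n = 3 and 3). The nearest control values were 93.6 in the second embryo and 93.7 in the first, whose emptiest bin held 1 cluster 3 cell. Of the 6 clusters with enough cells, clusters 1 to 6, 50% did not overlap between the genotypes by this measure, so the lower number was not particular to cluster 3. With the median over the whole window of 400 to 800 transcripts, cluster 3 gave 91, 93 and 95 genes in the controls and 93, 91 and 93 in the knockouts, which overlapped (93.0 ± 2.00 and 92.3 ± 1.15, SD, n = 3 and 3, exact permutation p = 1). By that measure 33.3% of the 6 clusters did not overlap, among them cluster 2, with 96 genes in each control embryo and 93.5, 90 and 93 in the knockout embryos. With the mean over the whole window in place of the median, the cluster 3 difference was -1.38 genes (n = 3 and 3, exact permutation p = 0.4).

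The gap between the clusters also depended on the measure. In the whole window, cluster 3 minus cluster 2 was -5, -3 and -1 genes in the controls and -0.5, 1 and 0 in the knockout embryos, so that the genotypes did not overlap (difference 3.17 genes, n = 3 and 3, exact permutation p = 0.1, adjusted p = 0.8). The background was 6.67% of the 15 pairs of clusters 1 to 6, namely this pair alone. In this window the genotypes differed by -3.83 genes in cluster 2 and by -0.67 in cluster 3. The change in the gap thus came mostly from cluster 2 and is not a result about cluster 3 alone. Depth was not even within this window. The cluster 3 cells had medians of 474, 585 and 586 transcripts in the controls and 590.5, 573 and 606 in the knockouts, and those of cluster 2 had 550, 612.5 and 584.5 and then 560, 603.5 and 579. Cluster 3 was thus the shallower in the first and second control and the second knockout embryo, and the deeper in the other 3. The third knockout embryo had only 23 cells of cluster 2 in this window. With bins of 100 transcripts the gap was -2.80 ± 0.633 genes in the controls and -2.20 ± 1.19 in the knockouts, and the genotypes overlapped (difference 0.594, n = 3 and 3, exact permutation p = 0.5). With the mean over the whole window in place of the median, the difference was 1.82 genes (n = 3 and 3, exact permutation p = 0.1).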

How the data were processed

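Sections of 3 Ankrd11-nchet and 3 Ankrd11-ncko embryos were imaged on the MERSCOPE instrument. The authors decoded transcripts with MERlin, segmented cells with Cellpose, outlined the OFT by hand and clustered OFT cells of all embryos together in Seurat, which the submitters' processing notes also name. The deposited counts are whole numbers of transcripts, and of panel genes with a transcript, per cell, not normalized; other deposited values (cluster number, outline mark, embryo name) were used as given. Cluster numbers depend on the clustering resolution, not given in the sources used here. Embryo names equal the sample titles, and replicates are numbered in accession order.

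From these, values per embryo were computed in Python 3.11.15 with pandas 2.3.3, numpy 2.4.6 and scipy 1.17.1. Genotypes were compared by exact 2-sided permutation tests over embryos, with Benjamini-Hochberg adjustment over 12 results. On simulated embryos whose shares varied within a genotype by counting error only, the code recovered the set difference. The p of the test was not checked on simulated cells. Per-gene counts were not used, so cells were matched, not thinned, for depth: 400 to 800 transcripts, whole (median) or in bins of 100 (average of the bin means). The genes named are *Ankrd11*, those by which the study recognised its neural crest clusters, and *Cxcl12*, which it used to describe their maturity. Cluster, measures and lists were chosen with earlier results of these data known. Alternatives were depth minima of 50 and 200 transcripts, other denominators, pooled cells, means, other windows and leaving out each embryo. Added after the data were seen were the embryo pair by identifier, clusters 3 and 7 together, bins of 100 transcripts and ratios to the other clusters.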

Additional observations from a re-analysis of the deposited data

How the results depend on the processing

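Of 12 comparisons between the genotypes, 5 kept their direction under every alternative: the shares of cluster 3 among OFT cells, among neural crest cells and among OFT transcripts, the ratio to cluster 2, and the gene gap to cluster 2 at matched depth. Leaving out each embryo in turn, these ranged from 4.48 to 16.6, 6.48 to 22.0 and 5.71 to 18.7 percentage points, 0.63 to 2.09 on the log2 scale and 2.17 to 4.17 genes. The shares and the ratio to cluster 2 rest on the same cluster 3 cells, so their common direction is not repeated support. The gene gap depends on cluster 2 too, whose own median differed by -3.83 genes, against -0.67 in cluster 3. The gene gap of 3.17 was smallest in bins of 100 transcripts (0.594, exact permutation p = 0.5), and was 1.00 in the pair of the third embryos and 1.00 in the window that starts at 600 transcripts (exact permutation p = 0.9), so in both the bins and that window the genotypes overlapped. The other 7 comparisons were smaller than the larger SD of the genotypes in the main setting, and each changed sign under at least 1 alternative. Leaving out each embryo in turn gave -0.79 to 0.97 (log2) for the ratio to cluster 7, -157 to 140 transcripts and -7.17 to 3.83 genes per cell, -0.25 to 0.12 (log2) for depth over cells outside the OFT, -0.11 to 0.0828 (log2) for depth over cluster 2, -1.67 to 0.33 genes at matched depth and -0.066 to 0.12 (log2) for the quartile ratio. With cells of at least 200 transcripts the ratio to cluster 7 was -0.36. Means in place of medians gave 33.3 transcripts, 0.0025 for depth over cells outside the OFT and 0.0569 for depth over cluster 2, and the log2 of the median gave 0.0808. The 90th over the 10th percentile gave -0.0322. Genes at matched depth differed by -2.19 in bins of 100 transcripts (exact permutation p = 0.1). In the window that starts at 600 transcripts they differed by -2.17 (exact permutation p = 0.6). Their sign changed only without the third control embryo. The pair of the third embryos gave -0.0881 for the ratio to cluster 7, 0.50 transcripts, -0.25 for depth over cluster 2 and -0.10 for the quartile ratio, and the other 4 embryos gave 0.11 for depth over cluster 2. The cause of these changes was not tested. Nowhere was p below 0.05, which 3 embryos against 3 cannot reach.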
